A study of Rattus norvegicus with 6 samples.

Results

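The genes described here form the cyclic GMP vasodilator pathway of vascular smooth muscle (VSM) cells: the soluble guanylate cyclase subunits Gucy1a1, Gucy1a2 and Gucy1b1, the natriuretic peptide receptors Npr1, Npr2 and Npr3, the cyclic GMP-dependent protein kinase Prkg1, its substrate Irag1, and the phosphodiesterases Pde5a and Pde3a. They were picked by gene symbol from a count table of 14475 genes, and all 10 had a row in it. The VSM cells came from the soleus feed artery (SFA), the resistance vessel that supplies the soleus muscle. They were isolated from male Fischer 344 rats, 3 young rats of 4 months and 3 old rats of 24 months, and every culture, young or old, was kept in DMEM F-12 medium with 10% fetal bovine serum before its polyadenylated RNA was sequenced. The mechanical treatments of the study were not part of these libraries, so age was the only labelled difference between the groups, and cultured cells stand in for the artery wall.

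Nitric oxide diffuses from the endothelium into VSM cells and activates soluble guanylate cyclase, a heterodimer of an alpha and a beta subunit, whereas natriuretic peptides bind membrane receptors that are guanylate cyclases themselves. The cyclic GMP made by either route activates the kinase encoded by Prkg1, which lowers cytosolic calcium and the calcium sensitivity of the contractile filaments, and so relaxes the artery. Phosphodiesterases end the signal by hydrolysing the cyclic nucleotide.

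Between young and old cells, the members that differed without overlap were the nitric oxide receptor subunits Gucy1a2 and Gucy1b1, the kinase substrate Irag1 and the receptor Npr1. Irag1 was 5.31-fold lower and Gucy1a2 28.9-fold lower in old cells by the edgeR fit, Gucy1b1 had fewer counts-per-million (CPM) in all 3 old cultures than in any young one, and Npr1 was 2.69-fold higher by the same fit. The kinase Prkg1 itself, Npr2, Npr3, Pde5a, Pde3a and the third subunit, Gucy1a1, lay at overlapping levels in the groups. A differentially expressed gene (DEG) was defined, as the study did, by an adjusted p below 0.05 and a log2 fold change of at least 1 in size, with young cells as the reference. The study applied these limits to DESeq2, whereas the main fit here was edgeR. By edgeR's quasi-likelihood test 0 of the 10 members were DEGs, where 0.00691% of all genes (1 gene) were. By DESeq2, the study's own tool, 3 were, all lower (Gucy1a2, Gucy1b1 and Irag1), where 5.48% of all genes were. At an unadjusted edgeR p below 0.05, 3 members were lower, against 11.5% of all genes, and 1 was higher, against 11.2%. The old and young values did not overlap for 3 members that were lower and 1 that was higher, against 14.7% and 14.5% of all genes. The median log2 fold change of the members was −0.63, and that of all genes 0.02. Without the third young culture the median of the members was −0.08.

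Total counts ran from 44235674 to 59700887 per library, and the libraries of a group were all distinct. The smooth muscle identity of the cultures was checked with 14 markers, all of which were detected. For 13 of them every old culture was below every young one, and Des, at 0.30 to 2.99 CPM, overlapped. Their summed level was 18164 to 31158 CPM in young cells and 6605 to 9963 CPM in old cells. The fibroblast markers came to 29888 to 33670 CPM in sum in old against 15293 to 21434 CPM in young cells, and Col1a1 made up at least 95.3% of the sum in each old culture. Of these 10 markers 4 were higher without overlap and 6 overlapped. Of 12 endothelial markers 6 had a row, summing to 29.2 to 43.0 CPM in young and 31.2 to 44.1 CPM in old cells, with Pecam1 at no more than 0.76 CPM. The 5 pericyte markers with a row summed to 325 to 660 CPM in young and 116 to 179 CPM in old cells. Of the skeletal muscle markers 5 of 12 had a row (103 to 203 CPM in young, 21.4 to 61.3 CPM in old), of the macrophage markers 3 of 8 (5.13 to 16.0 and 10.4 to 16.8 CPM), and of the Schwann cell markers 4 of 7 (13.7 to 75.7 and 55.1 to 86.6 CPM). The proliferation genes summed to 153 to 533 CPM in old against 485 to 741 CPM in young cells, and 3 of the 10 were lower without overlap. Over all genes, 14.7% were lower and 14.5% higher without overlap. The lowest adjusted p among the genes of these marker lists was 0.0531 by edgeR. In such bulk libraries, fewer cells of a type and less RNA per cell cannot be told apart. The third young culture (young replicate 3) stood apart from the others in several members: it held the highest young level of 8 of the 10 members, which together came to 417 CPM there, 239 to 268 CPM in the other young cultures and 186 to 211 CPM in the old ones. It also held the highest summed level of smooth muscle and of pericyte markers. Values without it are given beside the members and the called genes of the surrounding lists that depended on it.

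**Figure D1:**
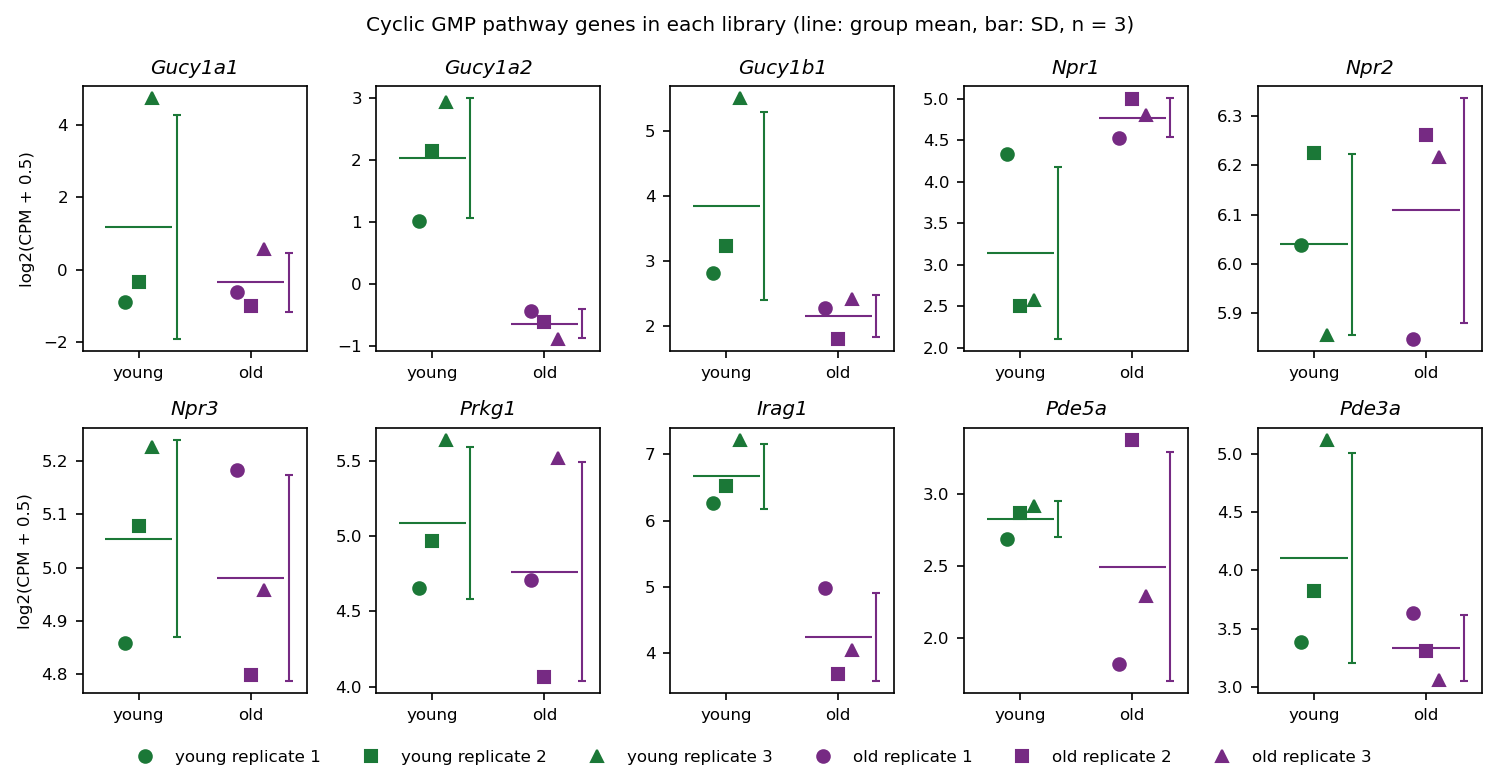
Level of each member as log2(CPM + 0.5) in the 3 young and 3 old cultures, with 1 point per library, a line at the group mean and a bar for the SD (n = 3), and an axis of its own for each gene. Irag1, Gucy1a2 and Gucy1b1 lay lower in every old culture than in every young one, Npr1 lay higher, and young replicate 3 held the outlying values of Gucy1a1, at 26.2 CPM, and Gucy1b1, at 45.2 CPM.

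Promoters are shown for Gucy1a2, Gucy1b1 and Irag1, which were lower without overlap, and for Npr1, which was higher. That of Gucy1a1, whose groups overlapped, is added so that the letters of the cyclase subunits can be set side by side. RefSeq promoter windows (build GRCr8, the 250 bases before the annotated start) existed for 9 of the 10 members. Each sequence reads 5′ to 3′ on the gene's own strand and ends at the base before the start. Capitals mark the GC box (GGGCGG), the CCAAT box (CCAAT) and the MCAT element (CATTCC) on either strand, and in Gucy1a1 the CCAAT box and the GC box overlap.
Gucy1a1 (chr2:169779624-169779873, minus strand): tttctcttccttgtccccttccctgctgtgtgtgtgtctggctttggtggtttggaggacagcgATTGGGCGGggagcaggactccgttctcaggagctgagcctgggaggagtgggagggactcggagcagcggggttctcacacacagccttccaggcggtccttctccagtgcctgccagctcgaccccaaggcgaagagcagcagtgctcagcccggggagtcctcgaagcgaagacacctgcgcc
Gucy1a2 (chr8:8784962-8785211, plus strand): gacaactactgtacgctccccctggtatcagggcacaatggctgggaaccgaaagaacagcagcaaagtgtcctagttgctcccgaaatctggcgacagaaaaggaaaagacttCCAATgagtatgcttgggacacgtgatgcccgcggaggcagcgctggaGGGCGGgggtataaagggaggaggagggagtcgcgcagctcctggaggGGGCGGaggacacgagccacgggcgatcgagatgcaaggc
Gucy1b1 (chr2:169696988-169697237, minus strand): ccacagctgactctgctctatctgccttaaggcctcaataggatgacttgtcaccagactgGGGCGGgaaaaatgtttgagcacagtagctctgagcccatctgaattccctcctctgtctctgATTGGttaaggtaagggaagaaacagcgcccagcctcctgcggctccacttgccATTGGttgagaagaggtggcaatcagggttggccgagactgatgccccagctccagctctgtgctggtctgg
Npr1 (chr2:178247089-178247338, minus strand): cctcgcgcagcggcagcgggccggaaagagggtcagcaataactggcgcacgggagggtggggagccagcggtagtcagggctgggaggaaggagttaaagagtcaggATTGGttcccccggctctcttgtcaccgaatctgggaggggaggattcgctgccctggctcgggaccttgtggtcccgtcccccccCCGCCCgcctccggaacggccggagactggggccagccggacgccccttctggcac
Irag1 (chr1:174528852-174529101, minus strand): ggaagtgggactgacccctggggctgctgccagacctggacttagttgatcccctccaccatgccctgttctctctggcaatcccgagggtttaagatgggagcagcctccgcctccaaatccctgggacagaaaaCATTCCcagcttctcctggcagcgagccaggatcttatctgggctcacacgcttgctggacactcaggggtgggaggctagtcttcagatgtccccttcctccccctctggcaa

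The Gucy1a1, Gucy1a2, Gucy1b1 and Npr1 windows each held a GC box and a CCAAT box, which were present in 30.5% and 34% of all 33469 RefSeq windows of this length. Gucy1a2 had 2 GC boxes and Gucy1b1 had 2 CCAAT boxes. The Irag1 window had neither, but had 1 MCAT element, a motif found in 12.1% of windows. Serum response factor binds the CArG box, a hallmark of contractile smooth muscle promoters, and this motif occurred in 1.5% of all windows and in 0 of the 10 member windows, which include a second start of Irag1. The AP-1 site (TGANTCA, 6.34% of windows) and the cyclic AMP response element (1.59%) also had no match in these windows. The E-box (CANNTG), found in 65.5% of all windows, matched in those of Gucy1a1, Gucy1a2, Gucy1b1, Prkg1 and both of Irag1. Its matches are not in capitals. The GC content was 63.2% for Gucy1a1, 59.6% for Gucy1a2, 54.8% for Gucy1b1, 68.8% for Npr1 and 59.2% for Irag1, against a median of 51.2%. In the members not shown it was 70.4% for Pde5a, 58% for Prkg1, 55.6% for Pde3a and 49.6% for Npr3. The Pde5a window also had 2 GC boxes. Gucy1a1 and Gucy1b1 are neighbours on rat chromosome 2, with no protein-coding gene annotated between them, and are read from the same strand. The matches describe letters only, and no binding was measured.

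The first question was whether the nitric oxide receptor differed with age. Gucy1b1 (ENSRNOG00000012060) encodes the beta subunit, which carries the haem that binds nitric oxide and which every form of the enzyme needs. Its level was 6.51, 8.89 and 45.2 CPM in the young cultures (294, 535 and 2223 counts) and 4.32, 2.96 and 4.81 CPM in the old ones (215, 154 and 258 counts). All old values were below all young values, but the third young culture was far above the other young ones. The log2 fold change was −2.32 (SE 0.77, 95% interval −4.18 to −0.47, adjusted p = 0.164 by edgeR), and DESeq2 called it a DEG (adjusted p = 0.0103). Over all alternative fits the adjusted p ranged from 0.00128 to 0.342. Without the third young culture the log2 fold change was −0.93 (adjusted p = 0.234 by edgeR), which is under the DEG threshold in size, and in DESeq2 −0.94 (adjusted p = 0.0518), so that the call was lost. It was also lost without the second old culture (adjusted p = 0.0861 by DESeq2).

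Gucy1a2 (ENSRNOG00000029876) encodes an alpha subunit that is abundant in the brain and that targets the enzyme to membranes. It was counted 69, 235 and 353 times in the young cultures and 12, 8 and 2 times in the old ones. These counts correspond to 1.53, 3.91 and 7.18 CPM in young and 0.241, 0.154 and 0.0373 CPM in old cells, so that the highest old culture was well below the lowest young one, while the last old count was below the 3 counts taken as the detection floor. With age its log2 fold change was −4.86 (SE 0.82, 95% interval −6.83 to −2.88), with an adjusted p of 0.0636 by edgeR and 2.19e-08 by DESeq2. The adjusted p ranged from 2.89e-11 to 0.230 over the alternative fits. The direction did not depend on the third young culture, since without it the log2 fold change was −4.23 (adjusted p = 0.123 by edgeR). Without the first old culture it was −5.43 and the gene passed as a DEG in edgeR (adjusted p = 0.0399), in a fit that called 732 genes in all.

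Gucy1a1 (ENSRNOG00000012302) encodes the alpha subunit that predominates in vascular muscle in vivo. Nearly all of its reads came from one library: it was counted 2, 18 and 1286 times in the young cultures and 8, 0 and 53 times in the old ones. The corresponding levels were 0.0443, 0.299 and 26.2 CPM in young and 0.161, 0 and 0.989 CPM in old cells, and a count of 0 in the second old culture allows a level of up to 0.0577 CPM. The groups overlapped. The log2 fold change of −4.51 (SE 2.30, 95% interval −10.04 to 1.02, adjusted p = 0.288 by edgeR) became 1.10 without the third young culture (adjusted p = 0.743), and DESeq2 gave this gene no p with all libraries. Its direction is thus set by that culture.

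The balance of the subunits was compared within each library as the log2 ratio of counts, which cancels the depth of the library but not the lengths of the transcripts. The Gucy1a1 to Gucy1b1 ratio ran from −6.88 to −0.79 in young and from −8.27 to −2.27 in old cells (difference −0.89, exact permutation p = 0.8, adjusted over 7 ratios 0.933). The Gucy1a2 to Gucy1a1 ratio was 4.80, 3.67 and −1.86 in young and 0.56, 4.09 and −4.42 in old cells (difference −2.13, exact permutation p = 0.6, adjusted 0.84). Both alpha subunit ratios varied more among cultures of an age than between the ages. With 3 cultures against 3 the smallest two-sided p of this test is 0.1, so that it cannot pass 0.05.

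Natriuretic peptide receptors make cyclic GMP without nitric oxide. Npr1 (ENSRNOG00000014684), the receptor of atrial and brain natriuretic peptide, was at 19.7, 5.17 and 5.45 CPM in the young cultures and 22.6, 31.4 and 27.3 CPM in the old ones. All old cultures were above all young ones, although the first young culture came near to them. The log2 fold change was 1.43 (SE 0.54, 95% interval 0.12 to 2.73, adjusted p = 0.198 by edgeR and 0.0522 by DESeq2), so it was not a DEG in either. Over the alternative fits the adjusted p ranged from 7.05e-23 to 0.381. Without the first young culture the log2 fold change was 2.35 (adjusted p = 0.0516 by edgeR), and in DESeq2 the gene then passed (log2 fold change 2.34, adjusted p = 7.05e-23). Without the second or the third young culture it was 1.11 or 1.13.

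Npr2 (ENSRNOG00000015991), the receptor of C-type natriuretic peptide, was at 65.2, 74.3 and 57.4 CPM in young and 57.1, 76.3 and 73.9 CPM in old cells. Npr3 (ENSRNOG00000019184), the clearance receptor that removes the peptides without making cyclic GMP, was at 28.5, 33.3 and 36.9 CPM in young and 35.8, 27.3 and 30.6 CPM in old cells. The young and old values of both genes overlapped throughout. The log2 fold change of Npr2 was 0.07 (SE 0.15, 95% interval −0.29 to 0.44, adjusted p = 0.792 by edgeR), and that of Npr3 was −0.07 (SE 0.14, 95% interval −0.42 to 0.27, adjusted p = 0.775). Both intervals exclude a change of 2-fold in either direction. Without the third young culture the log2 fold change was −0.014 for Npr2 and 0.016 for Npr3 in edgeR.

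The Npr2 to Npr1 ratio, which sets the receptor of C-type peptide against that of the atrial peptide, had a log2 value of 1.73, 3.84 and 3.39 in the young cultures and 1.34, 1.28 and 1.43 in the old ones. The old cultures were close to each other at 1.35 ± 0.078 (SD, n = 3) and all below the young ones at 2.99 ± 1.11 (SD, n = 3). The difference was −1.64 (exact permutation p = 0.1, the smallest possible, adjusted over 7 ratios 0.35). The Npr3 to Npr2 ratio differed by −0.14 (exact permutation p = 0.5, adjusted 0.84).

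Downstream of cyclic GMP lie the kinase and its substrates. Prkg1 (ENSRNOG00000053728), the kinase of VSM cells, was at 24.7, 30.9 and 49.3 CPM in young and 25.6, 16.2 and 45.3 CPM in old cells. The groups covered nearly the same range, and the log2 fold change was −0.27 (SE 0.42, 95% interval −1.27 to 0.74, adjusted p = 0.721 by edgeR), an interval that leaves room for a change of 2-fold downwards. Without the third young culture the log2 fold change of Prkg1 was 0.06 (adjusted p = 0.947 by edgeR).

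Irag1 (ENSRNOG00000017767) encodes a protein of the sarcoplasmic reticulum that, once phosphorylated by the kinase, restrains calcium release through the inositol trisphosphate receptor. Its counts were 3467, 5481 and 7285 in young and 1543, 644 and 865 in old cells, and its levels were 76.8, 91.1 and 148 CPM against 31.0, 12.4 and 16.1 CPM. The highest old culture was far below the lowest young one. The mean was 105 ± 37.8 CPM in young and 19.8 ± 9.85 CPM in old cells (SD, n = 3 each). For Irag1 the log2 fold change was −2.41 (SE 0.42, 95% interval −3.41 to −1.41), with an adjusted p of 0.0638 by edgeR, 4.02e-07 by DESeq2 and 0.0574 by limma-voom. Over the alternative fits the adjusted p ranged from 1.45e-14 to 0.230, and with any one culture left out the log2 fold change stayed between −2.89 and −2.08. Without the first old culture it was −2.89 and Irag1 passed as a DEG in edgeR (adjusted p = 0.0278).

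**Figure D2:**
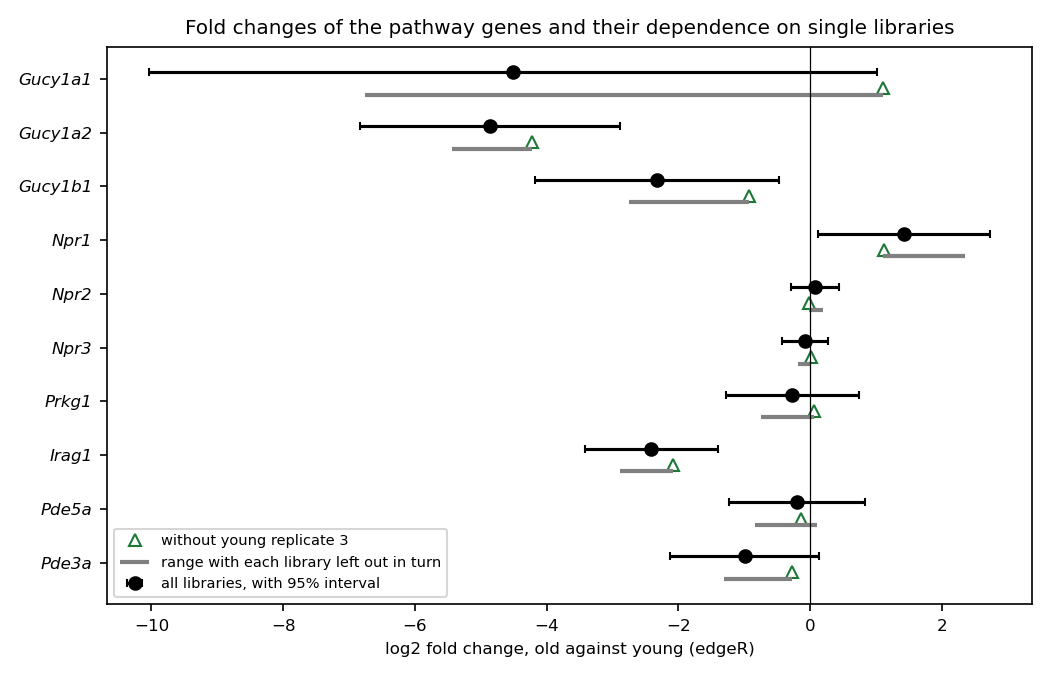
Log2 fold change of each member, old against young, from edgeR (filled points) with its 95% interval, the range with each library left out in turn (grey lines) and the value without young replicate 3 (triangles). The interval of Irag1 ran from −3.41 to −1.41 and that of Gucy1a2 from −6.83 to −2.88, whereas Gucy1a1 went from −4.51 to 1.10 once that culture was left out.

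The Irag1 to Prkg1 ratio was the most even of the 7 among young cultures. Its log2 value was 1.64, 1.56 and 1.59 in the young cultures, or 1.60 ± 0.038 (SD, n = 3), and 0.28, −0.39 and −1.49 in the old ones, or −0.53 ± 0.89. Irag1 had more reads than Prkg1 in all 3 young cultures, and fewer in 2 of the 3 old ones. The difference was −2.13 (exact permutation p = 0.1, the smallest possible, adjusted over 7 ratios 0.35), and it stayed between −2.53 and −1.65 with any one culture left out.

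**Figure D3:**
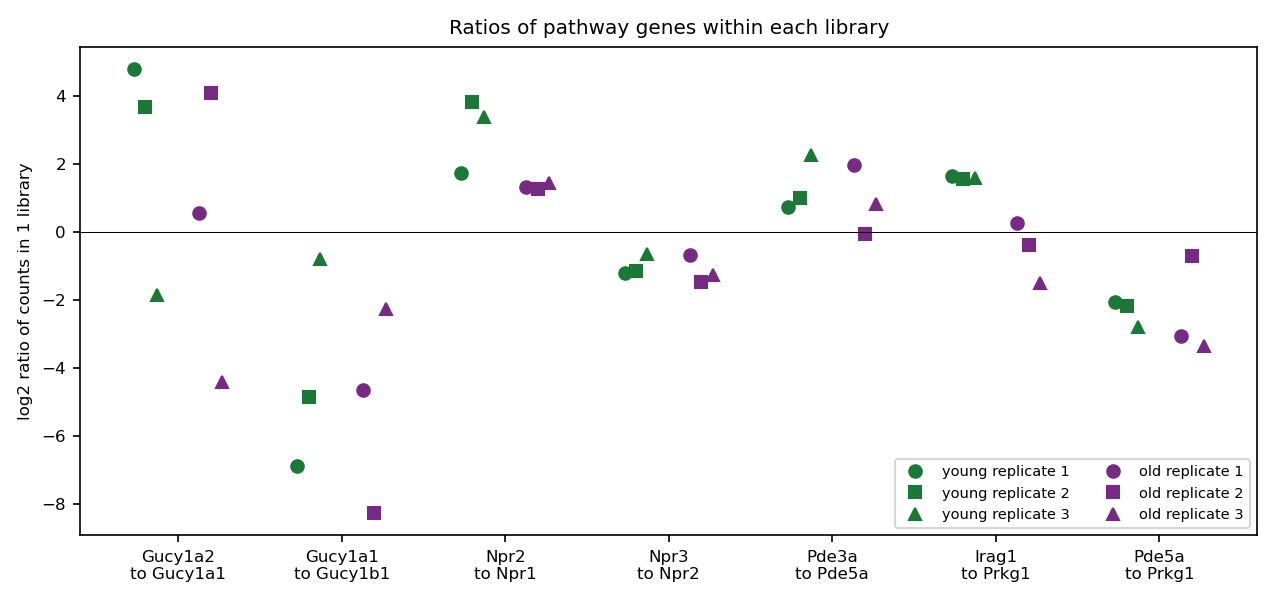
Log2 ratio of the counts of 2 members within each library, for the 7 ratios compared, with 1 point per culture. The Irag1 to Prkg1 and the Npr2 to Npr1 ratios were lower in all old than in all young cultures, with mean differences of −2.13 and −1.64, and the other 5 overlapped.

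Among the enzymes that end the signal, Pde5a (ENSRNOG00000014443), the cyclic GMP-specific phosphodiesterase that sildenafil inhibits, was at 5.94, 6.82 and 7.06 CPM in young and 3.04, 9.87 and 4.4 CPM in old cells. The young cultures were close together, and the old ones lay on both sides of them. Its log2 fold change was −0.20 (SE 0.43, 95% interval −1.22 to 0.83, adjusted p = 0.804 by edgeR). Pde3a (ENSRNOG00000025042), which hydrolyses cyclic AMP and is inhibited by cyclic GMP, was at 9.92, 13.6 and 34.3 CPM in young and 11.9, 9.39 and 7.84 CPM in old cells. Its log2 fold change of −0.99 (SE 0.47, 95% interval −2.12 to 0.14, adjusted p = 0.261 by edgeR) was −0.28 without the third young culture (adjusted p = 0.579). The Pde3a to Pde5a ratio differed by −0.43 (exact permutation p = 0.6, adjusted 0.84), and the Pde5a to Prkg1 ratio by −0.04 (exact permutation p = 1.0).

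Since the smooth muscle markers were lower in the old cultures, each member was also expressed per 1000 counts of the 14 smooth muscle markers in the same library, a scale chosen after the data were seen. On it most genes were higher in old cells: the median of all genes was 1.66 (log2, old minus young), and 86.2% of genes were higher without overlap, against 0.415% that were lower. Of the members, 5 were higher without overlap and 2 were lower, Gucy1a2 and Irag1. Irag1 was at 2.08, 1.86 and 2.25 in young and 1.64, 0.82 and 1.29 in old cells, a difference of −0.82 (exact permutation p = 0.1), and 0.933% of all genes had a lower value. Gucy1a2 was at −3.56, −2.68 and −2.11 in young and −5.31, −5.43 and −7.15 in old cells, a difference of −3.18 (exact permutation p = 0.1), with 0.0415% of all genes lower. All genes of a library were divided by the same sum, which shifts every difference equally. These percentages are therefore the same for the plain counts and do not describe the genes relative to smooth muscle content. The marker sum is led by the most abundant markers, and set against single markers the 2 genes stood differently: 4 of the 14 (Myh11, Cnn1, Actg2 and Myocd) had a log2 fold change below that of Irag1, and 0 had one below that of Gucy1a2.

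On the same scale Gucy1b1 overlapped between the groups, at −1.48, −1.49 and 0.54 in young and −1.20, −1.24 and −0.45 in old cells, a difference of −0.15. The first and second young cultures lay below all old ones on this scale, and only the third young culture lay above them. What part the smooth muscle markers had in the lower CPM of Gucy1b1 was not tested. Npr1 differed by 3.35, a value above that of 98.3% of all genes, again a rank that the shared divisor leaves unchanged. Prkg1 differed by 1.31, Npr2 by 1.72, Npr3 by 1.57 and Pde3a by 0.84, and these 4 were higher without overlap, as were most genes. Pde5a overlapped at 1.28, and Gucy1a1 at −1.05.

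**Figure D4:**
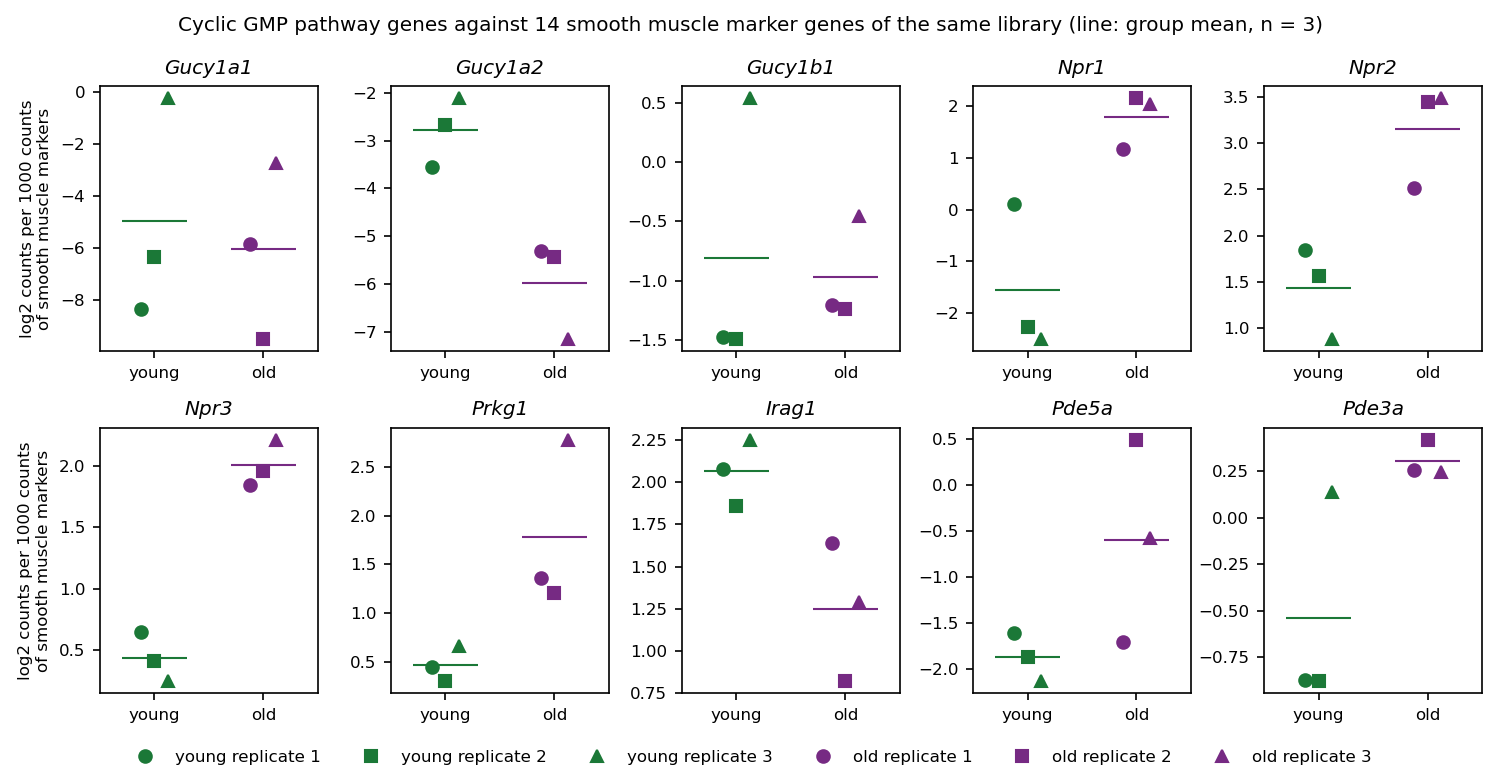
Log2 count of each member per 1000 counts of 14 smooth muscle markers in the same library, with 1 point per culture, a line at the group mean (n = 3) and an axis of its own for each gene. Gucy1a2 and Irag1 lay lower in all old cultures, by mean differences of −3.18 and −0.82, Gucy1b1 overlapped, and Npr1 lay higher, by 3.35, on a scale where the median of all genes was 1.66.

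The rest of the pathway was read from 6 lists of genes around these members, of which 76 of 119 genes had a row in the table. In them 40 genes had a negative and 36 a positive log2 fold change, with a median of −0.03, and edgeR called 0. DESeq2 called 5 lower and 2 higher, where 5.48% of all genes were called, and 13 and 7 were at an unadjusted edgeR p below 0.05, where 11.5% and 11.2% of all genes were. The balance of the directions was not tested.

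Of the kinase partners and targets 18 of 26 had a row, 12 had negative values, and the median log2 fold change was −0.44. Of all 14475 genes 6941 had negative values. DESeq2 called 4 lower and 1 higher, 5 of the 7 calls in the 6 lists, and 470 lower and 323 higher of all genes. The smooth muscle markers, 13 of 14 of which were lower without overlap, were not set against this list. Ppp1r14a, which encodes an inhibitor of myosin phosphatase and so opposes relaxation, was at 48.6 ± 12.8 CPM in young and 14.4 ± 2.39 CPM in old cells (log2 fold change −1.76, SE 0.22, adjusted p = 0.0531 by edgeR). Hspb6, a small heat shock protein that cyclic nucleotide-dependent kinases phosphorylate during relaxation, was at 57.9 ± 4.76 and 17.2 ± 8.79 CPM (−1.75, SE 0.36, adjusted p = 0.0799). Kcnmb4, a beta subunit of the large-conductance calcium-activated potassium channel, was low in all libraries, at 2.80 ± 0.225 and 0.508 ± 0.257 CPM (−2.46, SE 0.39, adjusted p = 0.0574).

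The inositol trisphosphate receptors, the calcium release channels of the sarcoplasmic reticulum, belong to this list. Itpr1, the form that Irag1 binds, was at 292 ± 145 CPM in young and 119 ± 45.5 CPM in old cells (log2 fold change −1.30, SE 0.42, adjusted p = 0.161 by edgeR and 0.0218 by DESeq2), and the young mean was carried by the third young culture, at 454 CPM against 174 and 247 CPM. Without that culture its log2 fold change was −0.83 in DESeq2 (adjusted p = 0.186), and the call was also lost without the second young (adjusted p = 0.0798), the first old (0.0544) or the second old culture (0.138). Itpr3 was at 45.9 ± 5.65 and 96.0 ± 9.46 CPM (1.06, SE 0.13, adjusted p = 0.0531 by edgeR and 2.01e-09 by DESeq2). Without the third young culture its log2 fold change of 0.98 in DESeq2 (adjusted p = 4.74e-07) was just under the fold threshold. Itpr2, named after its values were seen because it completes the family, was at 26.7 ± 3.37 and 36.8 ± 6.61 CPM (0.46, SE 0.16, adjusted p = 0.175 by edgeR and not called by DESeq2). For all 3 receptors the young and old cultures did not overlap, Itpr1 being lower and Itpr2 and Itpr3 higher. Of all genes 14.7% were lower and 14.5% higher without overlap. The gap was narrow for Itpr1, at 168 CPM in the third old and 174 CPM in the first young culture. All errors in these lists are SD with n = 3 cultures per age.

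Upstream of the cyclases, 15 of 18 genes of nitric oxide supply and cyclase redox state had a row, 8 negative and 7 positive, with a median of 0.00. DESeq2 called 1 of them, Ddah1, which degrades asymmetric dimethylarginine, an inhibitor of nitric oxide synthases. It was at 376 ± 20.9 CPM in young and 148 ± 52.5 CPM in old cells (log2 fold change −1.34, SE 0.27, adjusted p = 0.0762 by edgeR). Of 15 other cyclases, nitric oxide synthases and peptide ligands only 2 had a row: Gucy2c (log2 fold change 0.29) and Nppb (−0.41), and neither was called.

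Of 22 other phosphodiesterases 14 had a row, 6 negative and 8 positive, with a median of 0.19, and 0 were called by edgeR or DESeq2, with 1 at an unadjusted edgeR p below 0.05. The lowest p among those at 1 CPM or more belonged to Pde1a (log2 fold change 0.87, adjusted p = 0.311 by edgeR), Pde7a (0.35, 0.329) and Pde8a (0.20, 0.356). Among the transporters and channels, 5 of 12 had a row and 4 were positive, with a median of 0.68. Abcc4, which exports cyclic nucleotides from the cell, was at 14.3 ± 1.87 CPM in young and 26.9 ± 3.88 CPM in old cells (0.91, SE 0.15, adjusted p = 0.0636 by edgeR). It did not reach the fold threshold, nor did Abcc5 (0.83, adjusted p = 0.216) or the channel Hcn2 (−0.50, adjusted p = 0.459).

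The cyclic AMP arm, which relaxes the artery in parallel, had a row for 22 of 26 genes, 12 negative and 10 positive, with a median of −0.06. DESeq2 called 1 of them, Adcy2, an adenylyl cyclase, at 7.56 ± 2.43 CPM in young and 19.8 ± 7.96 CPM in old cells (log2 fold change 1.39, SE 0.37, adjusted p = 0.118 by edgeR and 0.00614 by DESeq2). That call was lost without the second young (adjusted p = 0.0652 by DESeq2) or the third old culture (0.068).

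**Figure D5:**
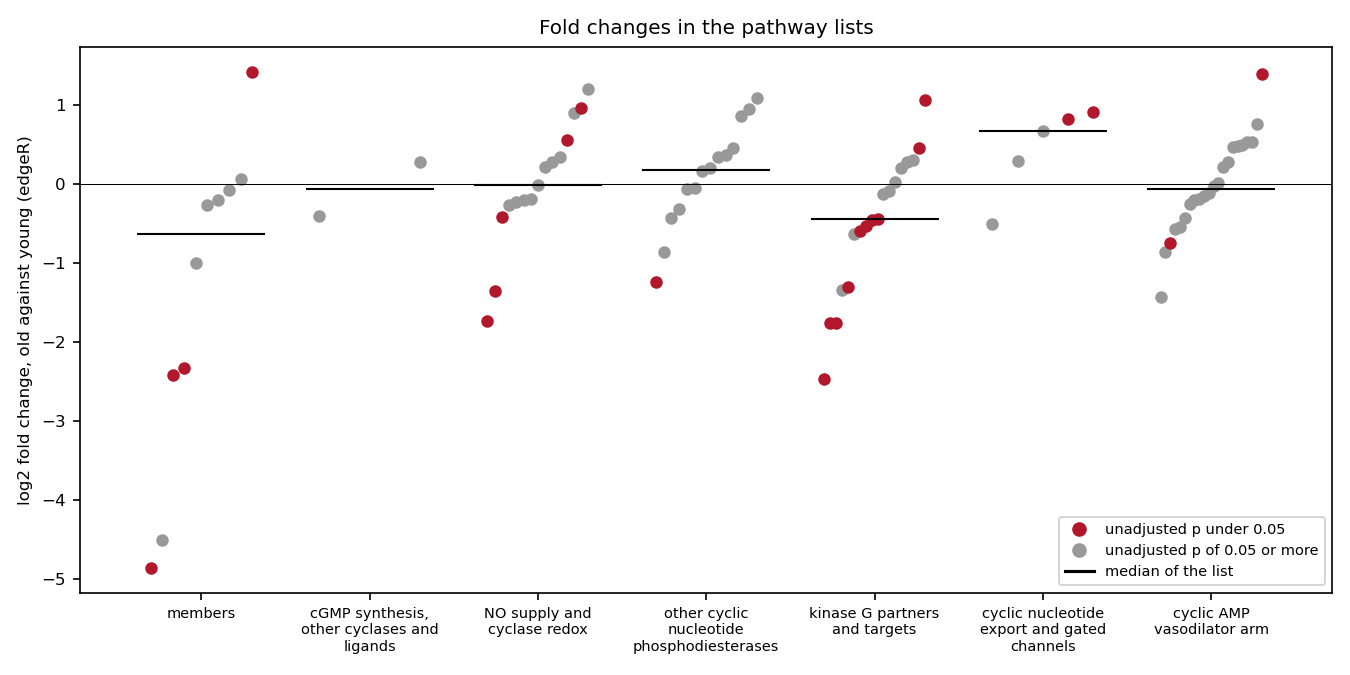
Log2 fold change, old against young, of the members and of every gene with a row in the 6 surrounding lists, with 1 point per gene (red where the unadjusted edgeR p was below 0.05) and a line at the median of the list. The kinase partners and targets had a median of −0.44 and the transporters and channels one of 0.68, while the cyclic AMP arm, at −0.06, and the nitric oxide supply genes, at 0.00, lay around 0.

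The genes whose log2 CPM was most like that of Gucy1b1 over the 6 libraries, among 11426 genes at an average of 1 CPM or more, were Rims1 (Pearson's r = 0.996), Sox11 (0.995), Pik3c2b (0.994), Rock1 (0.992) and Plekha7 (0.988). All 5 were highest in the third young culture, as Gucy1b1 was. Those most like Prkg1 were Sh3pxd2a (0.992), S100a16 (0.990), Dgkd (0.987), Lypla1 (0.986) and Sh3bp4 (0.985). These values describe 6 libraries that fall into 2 ages, and no p is given.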

How the data were processed

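Polyadenylated RNA of 6 VSM cell cultures, 3 per age group and 1 library each, had been sequenced from stranded libraries. Per the labels and the methods, the authors trimmed reads with Trim Galore 0.6.7 and cutadapt 3.5, aligned them to the rat assembly Rnor_6.0 with STAR 2.7.10b and counted them per gene with featureCounts (Subread 2.0.8). The deposited values are raw counts, and each of the 14475 genes had at least 10 counts in 3 or more libraries. Among counts of 1 to 19, 68.7% to 71.1% were even, so mates of a pair may have been counted singly. Every library's total count was also above the highest number of reads per sample that the paper gives.

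The counts as deposited were fitted with edgeR 4.0.16 (R 4.3.3; TMM scaling, quasi-likelihood F test, age as the only term, Benjamini-Hochberg adjustment over all genes). DESeq2 1.42.0 and limma-voom 3.58.1 were alternatives, with other scalings, filters, halved counts, a replicate block and each library left out. The paper's own DEGs came from DESeq2 1.46.0. CPM used the TMM-scaled totals. In within-library ratios 0.5 was added to each count, and they were compared by a two-sided exact permutation test. The 95% intervals come from the edgeR fit. Detection floors, set at 3 counts, cover counting error only, and would stand for fewer fragments if mates were counted singly.

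Named genes were all members, the genes of each list that were DEGs in edgeR or DESeq2 (or, where none was, the 3 of lowest edgeR p at an average of 1 CPM or more) and the 5 genes most correlated with Gucy1b1 and with Prkg1. Members and lists were chosen with earlier results of these data known. The edgeR and DESeq2 steps were tested on simulated data. The number of rats per group follows the paper, and p-values set the difference between the ages against the spread between cultures.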

Additional observations from a re-analysis of the deposited data

How the results depend on the processing

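The count of members called, 0 in the edgeR fit, was 3 with DESeq2, 3 with its filter set for 0.05, 2 at an adjusted p below 0.1 (Gucy1a2 and Irag1) and 4 in DESeq2 with a replicate block (Npr1 added). With each culture left out it was 0 to 2 in edgeR, the 2 without the first old culture, and 2 to 4 in DESeq2. The count of pathway genes called, 0, was 7 with DESeq2, 7 with its filter set for 0.05, 5 at an adjusted p below 0.1 and 10 in DESeq2 with a replicate block. It was 0 to 7 with each culture left out in edgeR, the 7 again without the first old culture, and 5 to 8 in DESeq2. The same fits called 0 to 732 of all genes in edgeR, the 732 without the first old culture, and 551 to 1377 in DESeq2. With all libraries the number of all genes called was 793 in DESeq2, 805 with its filter set for 0.05 and 1004 with the block. It was 381 at an adjusted p below 0.1 in edgeR and 0 in limma-voom. The paper, which used DESeq2, also gives 805 DEGs. The cause of these differences was not tested.

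Same-numbered cultures correlated at 0.064, 0.311 and 0.289 in their deviations from the group means. Replicate 3 held the highest Prkg1 level at both ages, 49.3 CPM in young and 45.3 CPM in old cells. Whether same-numbered cultures shared more than a number was not tested. In edgeR the replicate block left 0 members called and a median member log2 fold change of −0.58. That median, −0.63, ranged from −0.90 to −0.08 over the alternatives, and was −0.08 without the third young culture. Gucy1a2, Gucy1b1, Irag1, Npr1 and Pde3a kept their direction in all 22 alternatives. Apart from Pde3a these genes did not overlap between the groups, so leaving out 1 culture could not be expected to turn their sign. With each culture left out in edgeR, the log2 fold change of Gucy1a1 ran from −6.76 to 1.10, of Npr2 from −0.014 to 0.19, of Npr3 from −0.18 to 0.016, of Prkg1 from −0.74 to 0.06 and of Pde5a from −0.83 to 0.11. In DESeq2 the sign turned without the third young culture for Gucy1a1 (1.15), Npr2 (−0.019), Npr3 (0.012) and Prkg1 (0.060), without the second old culture for Npr2 (−0.0075), Npr3 (0.0095) and Prkg1 (0.014), and without the first old culture for Pde5a (0.10). With each culture left out, the ratio differences ran from −4.16 to 0.12 for Gucy1a2 to Gucy1a1, −2.29 to 0.80 for Gucy1a1 to Gucy1b1, −0.38 to 0.035 for Npr3 to Npr2, −0.96 to 0.059 for Pde3a to Pde5a and −0.87 to 0.45 for Pde5a to Prkg1, while Npr2 to Npr1 and Irag1 to Prkg1 stayed negative. Counts near the floor, as for Gucy1a1 and Gucy1a2, limit what this depth can show.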
